A study of Arabidopsis thaliana with 13 samples.

Results

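STZ and WRKY53 are 2 transcription factor genes of Arabidopsis thaliana whose transcripts are known to accumulate quickly after stress and handling. They were chosen by name, as 2 of the 13350 genes that have a probe set of their own in the platform annotation, and each has 1 such probe set. STZ (salt tolerance zinc finger, also called ZAT10) is locus AT1G27730, and WRKY53 is locus AT4G23810. Both passed the filter on low signals.

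Transcripts were measured on 13 Affymetrix arrays of seedlings in liquid medium that received the synthetic cytokinin 6-benzyl adenine (BA), dissolved in diluted KOH, or the solvent without BA. The transgenic line 35S::CKX1, called CKX1 below, makes an excess of cytokinin oxidase, which breaks cytokinins down, from the viral 35S promoter, which is active in most plant tissues. Its seedlings were treated with BA for 15 min (4 arrays) or with solvent for 2 h (3 arrays). Wild-type Col-0 seedlings were treated with solvent for 2 h, with BA for 15 min or with BA for 120 min (2 arrays each). The solvent time matches the 120 min treatment, so at 15 min BA and the time since handling cannot be told apart. The labels give 6 days of growth for the Col-0 arrays with BA; they state neither the BA dose nor the number of CKX1 lines, nor whether arrays came from separate cultures. P-values therefore measure the spread between these arrays, which may be technical. One array, Col-0 120 min array 1, carries BA 120 in its title and a control solution in its source field, and was placed by its title.

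STZ is a C2H2 zinc finger protein with an EAR motif that represses transcription, and its gene responds within minutes to salt, cold, drought, wounding and reactive oxygen. WRKY53 binds the W-box of stress and senescence genes, is known for its part in leaf senescence, and responds to hydrogen peroxide, salicylic acid and pathogens. Cytokinins act through a phosphorelay of histidine kinases and response regulators, and both genes lie outside that relay. Stress genes of this kind are known to respond within minutes to transfer, liquid flow and touch.

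STZ ranged from 23.5 to 699.3 signal units over the 13 arrays, a 29.8-fold range, and WRKY53 ranged from 4.3 to 94.7 units, a 22.0-fold range. The median of WRKY53 was 21.4 units, below the median of 33.9 units over all signals, so its fold ranges rest on low signals. In CKX1 seedlings after 15 min of BA, STZ read 23.5, 52.5, 518.4 and 38.9 units in arrays 1 to 4. In CKX1 seedlings with solvent it read 45.1, 452.4 and 699.3 units in arrays 1 to 3. Array 3 was the highest of each CKX1 group, and the 2 groups overlapped.

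In Col-0, STZ read 213.7 and 314.2 units with solvent, 185.1 and 53.4 units after 15 min of BA, and 40.1 and 51.8 units after 120 min of BA. Both solvent arrays lay above all 4 BA arrays. Of the 2 arrays at 15 min, array 1 lay close to the solvent arrays and array 2 close to the 120 min arrays.

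WRKY53 read 15.6, 21.4, 94.7 and 14.3 units in arrays 1 to 4 of CKX1 seedlings after 15 min of BA. It read 9.5, 31.9 and 54.7 units in arrays 1 to 3 of CKX1 seedlings with solvent. Array 3 was again the highest of both CKX1 groups, and the groups overlapped. In Col-0, WRKY53 read 38.6 and 69.4 units with solvent, 53.5 and 5.5 units after 15 min of BA, and 14.9 and 4.3 units after 120 min of BA. The solvent arrays lay above the 120 min arrays, while array 1 at 15 min lay between the 2 solvent arrays.

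**Figure D1:**
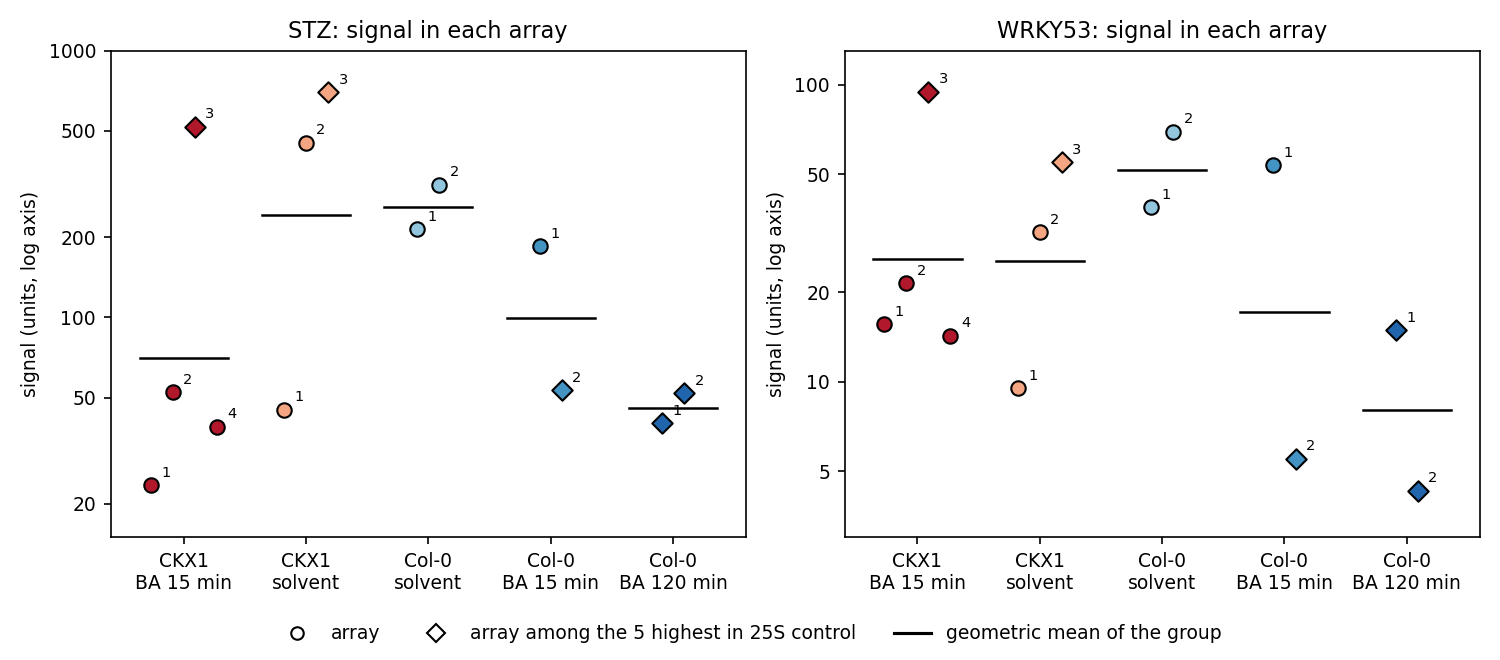
Signal of STZ (left panel) and WRKY53 (right panel) in each array, in units on a log axis, by group. Each point is 1 array with its number, diamonds are the 5 arrays with the highest 25S control signal, and bars are geometric means of a group. STZ in CKX1 after 15 min of BA has 3 arrays from 23.5 to 52.5 units and 1 at 518.4 units, and both Col-0 120 min arrays lie below both Col-0 solvent arrays for both genes.

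Group means of the signal followed these single arrays. STZ averaged 158 ± 240 units in CKX1 after 15 min of BA (SD, n = 4), against 399 ± 330 units in CKX1 with solvent (SD, n = 3). In Col-0 it averaged 264 ± 71.1 units with solvent, 119 ± 93.1 units at 15 min and 45.9 ± 8.27 units at 120 min (SD, n = 2 each). WRKY53 averaged 36.5 ± 38.9 units in CKX1 after 15 min of BA (SD, n = 4) and 32.0 ± 22.6 units in CKX1 with solvent (SD, n = 3). In Col-0 it averaged 54.0 ± 21.8 units with solvent, 29.5 ± 33.9 units at 15 min and 9.6 ± 7.50 units at 120 min (SD, n = 2 each).

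Ordered by the mean of log2(signal + 3.39), STZ was highest in Col-0 with solvent (8.04), followed by CKX1 with solvent (7.96), Col-0 at 15 min (6.69), CKX1 at 15 min (6.25) and Col-0 at 120 min (5.61). For WRKY53 the order was Col-0 with solvent (5.79), CKX1 at 15 min (4.91), CKX1 with solvent (4.90), Col-0 at 15 min (4.49) and Col-0 at 120 min (3.57). Col-0 with solvent and Col-0 at 120 min were the ends of both orders. In every neighbouring pair of either order the gap was smaller than the larger SD of the pair: the widest were 1.27 for STZ, beside an SD of 2.07, and 0.92 for WRKY53, beside an SD of 1.89.

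The spread inside the groups was wide for both genes. The highest array exceeded the lowest 22.1-fold for STZ in CKX1 after 15 min of BA and 15.5-fold in CKX1 with solvent. In Col-0, STZ spread 1.47-fold with solvent, 3.47-fold at 15 min and 1.29-fold at 120 min. WRKY53 spread 6.62-fold in CKX1 at 15 min and 5.76-fold in CKX1 with solvent, while in Col-0 it spread 1.80-fold with solvent, 9.73-fold at 15 min and 3.47-fold at 120 min. The residual SD of the linear model, on the log2 scale with 8 residual degrees of freedom, was 1.63 for STZ and 1.18 for WRKY53, against a median of 0.44 over the 15922 probe sets tested. It was larger than that of 99.1% of those probe sets for STZ and of 96.6% for WRKY53.

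Arrays also differed in the signal of a control probe set for 25S ribosomal RNA. It read 92.5 to 803.7 units in 5 arrays (CKX1 15 min array 3, CKX1 solvent array 3, Col-0 15 min array 2 and both Col-0 120 min arrays) and at most 46.2 units in the other 8. The same 5 arrays stood apart over all tested probe sets. The first principal component, the main axis of difference between arrays, held 34.3% of the variance. On it these 5 arrays lay at 34.69 to 77.04 and the other 8 at −42.49 to −25.11. Those 5 arrays held STZ signals of 518.4 and 699.3 units in CKX1, and of 53.4, 40.1 and 51.8 units in Col-0. The 25S set coincides with the groups in the Col-0 comparison of 120 min against solvent, so that array set and treatment cannot be told apart there. Tissue markers were measured in all groups, as whole seedlings should have them: the shoot marker LHCB4.1, a light-harvesting protein, read at least 3940.7 units, and the root marker PYK10, a root beta-glucosidase, at least 2228.6 units.

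Differences between groups were tested with limma across all 15922 probe sets, on log2(signal + 3.39), with Benjamini-Hochberg adjustment and a threshold of 0.05. Neither gene passed in any of the 7 comparisons made. In a bulk extract, fewer cells of a type and less RNA per cell cannot be told apart.

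In Col-0 after 120 min of BA, both genes lay below their solvent level in every array. The difference was −2.42 for STZ (SE 1.36, 95% interval −5.39 to 0.55, limma adjusted p = 0.490), which is 5.36-fold lower on the scale with the pseudocount. For WRKY53 it was −2.22 (SE 1.01, 95% interval −4.43 to −0.01, limma adjusted p = 0.390), which is 4.66-fold lower. Groups that did not overlap, with the BA arrays lower, were found for 37.4% of all probe sets in this comparison, and 0.0377% passed the adjusted threshold. A difference as low or lower occurred in 0.835% of probe sets for the value of STZ and in 1.17% for that of WRKY53. With the wide spread of both genes, the limma unadjusted p was only the 3280th smallest for STZ (0.101) and the 1991st for WRKY53 (0.0488).

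Whether either gene passed at 120 min depended on which arrays supplied the error. With the 4 Col-0 arrays of this comparison alone, the same differences gave a limma adjusted p of 0.000302 for STZ and 0.0115 for WRKY53, where 23.1% of all probe sets passed. With arrays weighted by their estimated quality, the adjusted p was 0.0219 for STZ and 0.0156 for WRKY53, where 21.8% of all probe sets passed. Without CKX1 15 min array 3, CKX1 solvent array 3 and Col-0 15 min array 2, the arrays high in 25S outside the 120 min group, it was 0.0995 for STZ and 0.0399 for WRKY53, where 10.1% passed. With the set of 5 arrays highest in 25S as a term, the difference was −4.20 for STZ (adjusted p = 0.271) and −2.92 for WRKY53 (adjusted p = 0.359). That term is estimated from the groups with both kinds of array: both CKX1 groups and Col-0 at 15 min. For both genes the array high in 25S was the highest of each CKX1 group but the lower one in Col-0 at 15 min. The term assumes a common shift that these groups do not share, so it cannot correct the 120 min difference. The last 2 settings were added after seeing the data.

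Tissue markers differed in the same comparison, without passing the threshold. The root hair expansin EXPA7 read 32.6 and 39.8 units after 120 min of BA, against 135.9 and 163.0 units with solvent (−1.95, limma adjusted p = 0.207). EXPA18, the other root hair expansin listed, differed by −1.54, the root marker AT1G62500 by 1.40, PYK10 by 0.16 and the shoot marker LHCB4.1 by 0.70. Of the 4 root markers 2 lay lower and 2 higher, and 1 of 1 measured shoot marker lay higher. The part of tissue composition in the STZ and WRKY53 values was not tested.

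At 15 min of BA in Col-0, the arrays of the pair disagreed. STZ differed from solvent by −1.34 (SE 1.36, 95% interval −4.32 to 1.63, limma adjusted p = 0.9999), with both BA arrays below both solvent arrays, as in 15.1% of all probe sets. WRKY53 differed by −1.30 (SE 1.01, 95% interval −3.50 to 0.91, limma adjusted p = 0.9999), and its groups overlapped. In this comparison 0.0% of probe sets passed the threshold in limma, with 173 at an unadjusted p under 0.05. Without array 2 at 15 min the STZ difference was −0.48 and the WRKY53 difference 0.04, and without array 1 they were −2.21 and −2.64.

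Between 120 min and 15 min of BA in Col-0, STZ differed by −1.08 (SE 1.36, 95% interval −4.05 to 1.89, limma adjusted p = 0.9999). Its 120 min arrays lay below its 15 min arrays, as they did for 23.7% of all probe sets. WRKY53 differed by −0.92 (SE 1.01, 95% interval −3.13 to 1.28, limma adjusted p = 0.9999) with overlapping groups. The threshold was passed by 0.0188% of probe sets. Without array 1 at 15 min the difference became −0.21 for STZ and 0.42 for WRKY53.

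In CKX1 seedlings the 2 genes gave different estimates for 15 min of BA. STZ differed from solvent by −1.72 (SE 1.04, 95% interval −3.99 to 0.55, limma adjusted p = 0.9999), with overlapping groups. An exact two-sided permutation test over the 7 arrays gave p = 0.286, where the smallest p that 4 against 3 arrays allow is 0.0571. WRKY53 differed by 0.01 (SE 0.77, 95% interval −1.67 to 1.70, limma adjusted p = 0.9999), with an exact two-sided permutation p of 1.0. In this comparison 0.00628% of probe sets passed the threshold. A value as low as that of STZ occurred in 0.0251% of all probe sets, although its unadjusted p of 0.125 was the 709th smallest.

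The array numbers in the titles were taken as pairing the CKX1 groups, although no label says what a number stands for. In the pairs of the same number, BA minus solvent gave log2 differences of −0.85, −3.03 and −0.43 for STZ. The share of all probe sets lower in every pair was not computed. For WRKY53 the pairs gave 0.56, −0.51 and 0.76, with no common direction. With the replicate number as a random block the STZ difference was −1.59 (limma adjusted p = 0.9996) and the WRKY53 difference 0.13, while 3 probe sets passed in place of 1. Without CKX1 15 min array 3, STZ differed by −2.64 and WRKY53 by −0.56, and without CKX1 solvent array 1 they differed by −2.90 and −0.59. Without CKX1 solvent array 3 the STZ difference was −0.97.

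Genotypes were compared within each treatment. With solvent, CKX1 minus Col-0 was −0.07 for STZ (SE 1.24, 95% interval −2.79 to 2.64, limma adjusted p = 0.9935) and −0.89 for WRKY53 (SE 0.92, 95% interval −2.91 to 1.12, limma adjusted p = 0.897). The threshold was passed by 0.0126% of probe sets. The STZ estimate has no settled direction: it was 0.11 with arrays centred on their median and 1.11 without CKX1 solvent array 1.

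After 15 min of BA, CKX1 minus Col-0 was −0.45 for STZ (SE 1.18, 95% interval −3.02 to 2.13, limma adjusted p = 0.922) and 0.42 for WRKY53 (SE 0.88, 95% interval −1.49 to 2.33, limma adjusted p = 0.904). Here 0.0188% of probe sets passed. Without Col-0 15 min array 1 the STZ value was 0.42, and without Col-0 15 min array 2 the WRKY53 value was −0.92. The intervals of both genotype comparisons include differences of more than 1 log2 unit in either direction.

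The CKX1 response to 15 min of BA minus the Col-0 response, tested as an interaction, was −0.37 for STZ (SE 1.71, 95% interval −4.11 to 3.37, limma adjusted p = 0.9997). For WRKY53 it was 1.31 (SE 1.27, 95% interval −1.47 to 4.09, limma adjusted p = 0.9997). Without Col-0 15 min array 1 the value was 0.49 for STZ and 2.65 for WRKY53, and without array 2 it was −1.24 for STZ and −0.028 for WRKY53. In limma 0.0% of probe sets passed, with 169 at an unadjusted p under 0.05. These comparisons share solvent or BA arrays and are not independent of each other.

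**Figure D2:**
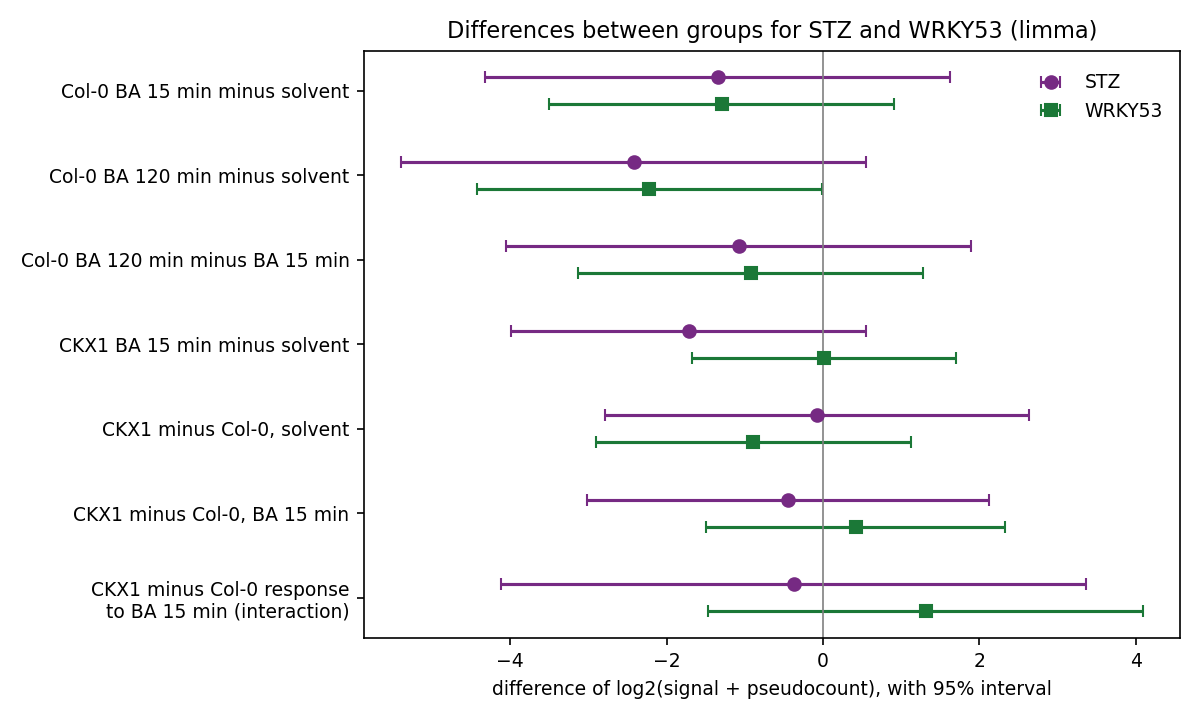
Differences of log2(signal + 3.39) between groups for STZ (circles) and WRKY53 (squares) in the 7 comparisons, on the x axis, with 95% intervals from limma as bars. The interval excludes 0 in 1 case, WRKY53 in Col-0 at 120 min (−4.43 to −0.01), whose adjusted p is 0.390.

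For comparison, the type-A response regulators ARR15 and ARR16, early targets of cytokinin signalling, were the measured members of their list of 10. ARR15 read 57.8 and 119.8 units at 15 min in Col-0, against 2.7 and 11.3 units with solvent (3.20, SE 0.60, limma adjusted p = 0.805). Its groups did not overlap in CKX1 either, with 12.6 to 36.6 units after BA, against 3.2 to 11.4 units with solvent (1.40, limma adjusted p = 0.9999). The BA arrays all lay above the solvent arrays for 11.6% of all probe sets in Col-0 at 15 min and for 1.13% in CKX1. ARR16 differed by 1.23 in Col-0 and 0.68 in CKX1 at 15 min. No member of that list passed the threshold in any of the 7 comparisons.

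STZ and WRKY53 tended to be high in the same arrays. In 4 of 5 groups the array highest in STZ was also the highest in WRKY53, Col-0 at 120 min being the exception. The Col-0 groups hold 2 arrays each, where such a match arises easily by chance. In both CKX1 groups the array was array 3, which is among the 5 highest in 25S. How often other probe sets match STZ in this way was not computed. STZ signals fell into separate sets, with 6 arrays from 185.1 to 699.3 units and 7 arrays from 23.5 to 53.4 units and no array between them, so no correlation over all arrays is given. WRKY53 read 31.9 to 94.7 units in the arrays of the upper STZ set and 4.3 to 21.4 units in those of the lower set. The share of all probe sets without overlap between these sets was not computed, so the separation cannot be called particular to WRKY53.

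Inside the upper set, Pearson's r between the 2 genes was 0.24 (n = 6, exact permutation p = 0.636) and Spearman's rho 0.37 (exact permutation p = 0.497). Inside the lower set r was −0.43 (n = 7, exact permutation p = 0.317) and rho −0.36 (exact permutation p = 0.444). The sets were split on the STZ values themselves, which narrows the range of STZ inside each. Over the 8 arrays with low 25S signal, which span both sets, r was 0.82 (n = 8, exact permutation p = 0.0211) and rho 0.74 (exact permutation p = 0.0458). These 8 arrays come from several groups, which the permutation ignores, so differences between groups and between the sets enter these values. Of 7 relations computed between the 2 genes, these 3 were adjusted together by Benjamini-Hochberg. For r this gave an exact permutation p, adjusted, of 0.636 in the upper set, 0.475 in the lower set and 0.0632 over the 8 arrays. For rho the exact permutation p, adjusted, was 0.497 in the upper set, 0.497 in the lower set and 0.1375 over the 8 arrays. The deviations of the 13 arrays from their group means had an r of 0.87 and a rho of 0.87, given as a description because they too span both sets.

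**Figure D3:**
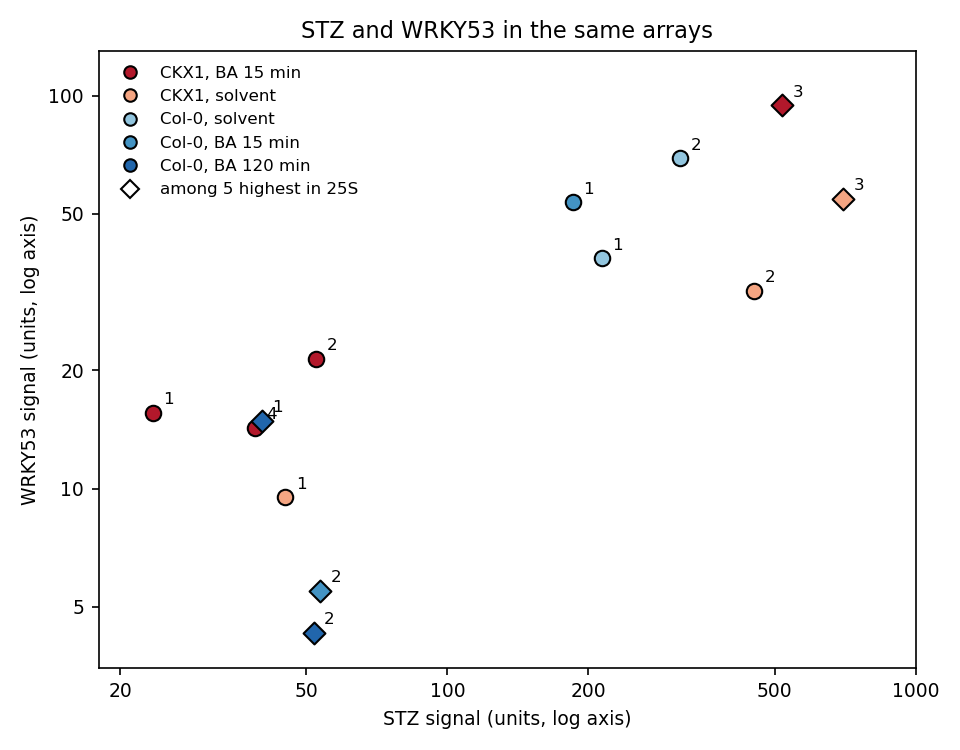
Signal of WRKY53 against that of STZ in each of the 13 arrays, in units on log axes. Colours mark the groups, numbers the arrays, and diamonds the 5 arrays with the highest 25S signal. By STZ, 6 arrays lie at 185.1 units or more and 7 at 53.4 units or less. WRKY53 is at 31.9 units or more in the first set and at 21.4 units or less in the second. The share of all probe sets separated in this way was not computed.

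The genes whose pattern was most like these were ranked by Pearson's r of log2 values over the 13 arrays, among 8747 other tested probe sets with 1 named gene. This r is a description, with points that share arrays and the 2 sets above, so a gene that differs between those sets in the same way ranks high. WRKY53 itself ranked 17th among the named genes for STZ, and STZ ranked 30th for WRKY53. Of the 100 genes most alike to either, 50 were in both lists of 100.

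For STZ the most alike was DLAH, a DAD1-like acylhydrolase, with r = 0.952. DLAH read 11.3, 24.6, 91.7 and 16.7 units in CKX1 after 15 min of BA, against 13, 75.3 and 196.4 units in CKX1 with solvent. In Col-0 it read 50.1 and 67.9 units with solvent, 58.2 and 19.8 units at 15 min, and 5.5 and 12.2 units at 120 min. Its high and low arrays were those of STZ, with CKX1 solvent array 3 the highest. Then came AT1G05575 (r = 0.919), AT5G39670 (r = 0.918), AT4G27280 (r = 0.906), AT2G22880 (r = 0.906), AT5G62460 (r = 0.905), AT5G62150 (r = 0.891) and AT2G24600 (r = 0.876), which the gene table used here lists by locus alone.

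For WRKY53 the most alike was PUB22, a U-box E3 ubiquitin ligase, with r = 0.910. PUB22 read 43.3, 61.2, 202.2 and 35.5 units in CKX1 after 15 min of BA, against 53.3, 56.2 and 153.1 units in CKX1 with solvent. In Col-0 it read 103.0 and 150.2 units with solvent, 112.7 and 29.6 units at 15 min, and 47.5 and 47.3 units at 120 min. As with WRKY53, CKX1 15 min array 3 was the highest of all arrays. The others were AT1G47830 (r = 0.909), AT1G02360 (r = 0.908), AT1G30700 (r = 0.891), the pectin methylesterase ATPMEPCRB (r = 0.879), AT1G05575 (r = 0.879), AT5G62150 (r = 0.876) and AT4G20830 (r = 0.873).

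The 8 genes most alike to both, by the mean of the 2 r values, were AT1G05575, DLAH, AT5G62150, AT5G39670, PUB22, AT5G48540, AT2G22880 and AT1G19020. AT1G05575 read 20.1, 49.4, 109.9 and 29.6 units in CKX1 after 15 min of BA, against 18.4, 68.3 and 178.7 units in CKX1 with solvent. In Col-0 it read 56.2 and 122.1 units with solvent, 97.9 and 30.5 units at 15 min, and 25.2 and 25.6 units at 120 min. All 8 genes most alike to STZ, and all 8 most alike to WRKY53, also ranked in the first 100 by Spearman's rho and by r of deviations from the group means.

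**Figure D4:**
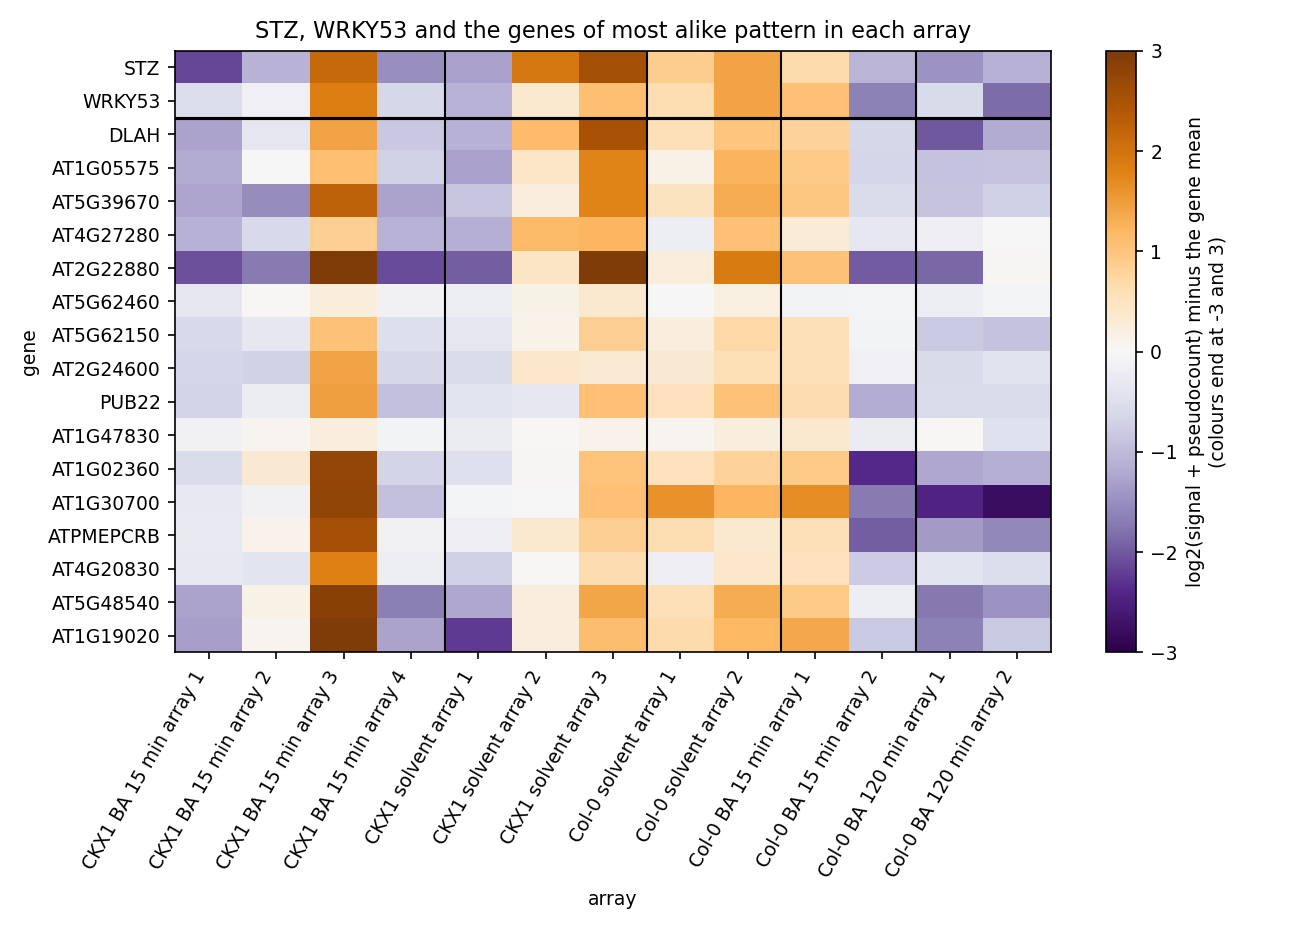
Heat map of log2(signal + 3.39) minus the mean of each gene, in each array (columns, by group) for STZ, WRKY53 and the genes most like them (rows); colours end at −3 and 3. CKX1 15 min array 3 and CKX1 solvent array 3 are high for most of the genes shown, while CKX1 15 min arrays 1 and 4 and both Col-0 120 min arrays are low for most.

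The other genes of rapid stress responses were taken from 5 lists: C2H2 zinc finger relatives of STZ, the WRKY family, touch and calcium genes, other rapid stress transcription factors, and early signalling and defence genes. Apart from STZ and WRKY53 these held 113 loci, of which 15 had a named probe set and 12 were measured above the filter, so the lists are only thinly covered. None of the 12 passed the threshold in either direction in any comparison. In Col-0 at 120 min, 7 of 12 lay below solvent with a median difference of −0.38, against 57.1% and a median of −0.11 over all probe sets tested. In CKX1 at 15 min, 7 of 12 lay below solvent with a median of −0.16, against 50.4% and a median of −0.00.

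Among the C2H2 relatives, AT2G28200 differed by 0.72 in Col-0 at 120 min and by −1.0 in CKX1 at 15 min, and AT3G53600 was below the filter. In the WRKY family at 120 min in Col-0, WRKY6 read 39.8 and 47.8 units, against 186.9 and 188.0 units with solvent (−2.02, limma adjusted p = 0.308). WRKY6, a regulator of senescence and defence genes, thus had an estimate near that of WRKY53. WRKY22, a factor of flagellin signalling, differed by 0.70, WRKY47 by 0.45, WRKY20 by 0.46 and ZAP1 (WRKY1) by −0.46, so that 3 of the 6 measured members of the family, WRKY53 included, lay below solvent and 3 above.

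Of the touch and calcium genes, which encode calmodulin-like calcium sensors, CML42 read 38.9 and 46.7 units at 120 min in Col-0, against 158.8 and 333.7 units with solvent (−2.34, limma adjusted p = 0.151). CML23 differed by −0.71 and CML38 by 1.16, while CML37 and AT1G76640 were below the filter. The AP2/ERF factor ORA47 differed by −0.30. Of the early signalling genes, the U-box ligase PUB23 read 28.2 and 28.8 units, against 201.6 and 212.8 units with solvent (−2.72, limma adjusted p = 0.289), and its close relative PUB22 differed by −1.33 (limma adjusted p = 0.514). The measured genes of these lists thus lay on both sides of 0 at 120 min, from −2.72 to 1.16.

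The 3 further lists hold genes linked to the known roles of STZ and WRKY53. Of 12 cold and drought genes, the dehydrin LTI30 passed as lower in Col-0 at 120 min. It read 50.1 and 55.7 units, against 244.0 and 309.8 units with solvent (−2.31, SE 0.31, limma adjusted p = 0.0332), where 0.0377% of all probe sets passed. This call was lost in 9 of 13 fits with 1 array left out, namely each array of Col-0 with solvent and at 120 min, CKX1 15 min arrays 1, 2 and 4 and CKX1 solvent arrays 1 and 2, with an adjusted p of up to 0.530. Of 16 other settings it was lost in 3, median-centring and both uses of the 25S class at the widest gap, with an adjusted p of up to 0.0675. For LTI30 too, the 25S array set and the treatment cannot be told apart in this comparison. The dehydrin COR47 differed by −0.86, and COR15A was below the filter. Of 19 senescence and WRKY53-linked genes, SAG101, an acyl hydrolase named for senescence, was measured and differed by −0.33. Of 15 jasmonate genes, 0 had a named probe set.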

How the data were processed

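The authors deposited 1 table whose entries are linear, normalized signal intensity values; per the labels' protocols, a service centre supplied them together with expression calls. Software, scaling target and genome build are not given in the sources. The 2% trimmed mean is 100.0 in all arrays. All 13 sample columns were used (0 unused). Arrays give no read depth, and their number limits precision.

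Of 22810 probe sets, 64 controls were removed and those with a mean log2 value under the 30th percentile filtered, leaving 15922. Signals were floored at 1 and converted to log2 after adding a pseudocount of 3.39, which is 0.1 of the median signal of 33.9, so fold changes of dim probe sets are understated. The fit by limma 3.58.1 (R 4.3.3) took 13 arrays in 5 groups, with an intensity trend and no block. limma's adjusted p-values are Benjamini-Hochberg over all probe sets tested. Permutation tests used scipy 1.17.1.

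Names came from the platform annotation: 13513 probe sets with 1 gene, 503 with several and 8730 not listed; 13436 matched the RefSeq gene table of TAIR10.1. Genes named were STZ, WRKY53, the 8 most alike to each and to both, and up to 4 measured members of each of 11 lists (179 loci), with every member that passed. WRKY20 lies outside that rule and was named to complete its family. Members and lists were chosen with earlier results of these data known.

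Array numbers were taken as pairing the CKX1 groups, since deviations from group means correlated at 0.63, 0.58 and 0.73 in the same-numbered pairs, across probe sets; no label says what a number stands for. A planned correlation of both genes over all arrays is not reported, because the STZ values form separate sets.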

Additional observations from a re-analysis of the deposited data

Results flagged for a closer look

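In CKX1 after 15 min of BA, array 3 stood apart from the other 3 for both genes. For STZ it read 518.4 units, and its gap to the nearest array was 0.941 of the group's range, above Dixon's 95% critical value for 4 samples. For WRKY53 it read 94.7 units, with a gap of 0.912 of the range. On the log2 scale the gaps were 0.753 and 0.803, below the critical value. Chance alone marks about 1 in 20 groups in this way if values are normally distributed, which was not checked for these linear signals. The 2 values come from the same array, so they are not independent. This array also had the highest 25S control signal, at 803.7 units. The part of that signal in the STZ and WRKY53 values was not tested.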

How the results depend on the processing

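Over 395 values of STZ and WRKY53 under other settings, 362 kept their direction and their side of the threshold, 5 passed a threshold not passed in the model reported and 28 changed sign; causes were not tested. The 5 all concern Col-0 at 120 min. They are STZ (−2.42) and WRKY53 (−2.22) with the compared groups alone (adjusted p = 0.000302 and 0.0115), the same differences with array weights (adjusted p = 0.0219 and 0.0156), and WRKY53 (−2.22, adjusted p = 0.0399) without the 3 arrays of mixed groups among the 5 highest in 25S, a setting added after seeing the data. WRKY53 in CKX1 at 15 min changed sign to −0.024 with median-centring, −0.030 with quantile normalization, −0.26 with array weights, −0.23 without CKX1 solvent arrays 1 and 3, and −0.073 without the 3 mixed-group arrays. STZ for CKX1 minus Col-0 with solvent became 0.11 with median-centring and 0.80 without CKX1 solvent arrays 1 and 3. The widest gap in 25S signal put 12 arrays above it and 1, CKX1 solvent array 2, below, so leaving out the upper arrays of groups with both kinds removed those 2 and left 1 CKX1 solvent array, assumed to vary like the other groups. WRKY53 for CKX1 minus Col-0 at 15 min became −0.21 with array weights and −1.49 without the 3 mixed-group arrays. Without those 3, WRKY53 in Col-0 at 15 min became 0.041 and its interaction −0.11. The STZ interaction became 0.061 with that class as a term, which amounts to leaving out CKX1 solvent array 2, and 0.66 with the set of 5 arrays as a term. Leaving out each array in turn gave, for STZ and then WRKY53, −2.21 to −0.48 and −2.64 to 0.041 in Col-0 at 15 min, −2.70 to −2.15 and −2.85 to −1.60 at 120 min, −1.94 to −0.21 and −2.26 to 0.42 for 120 min against 15 min, −2.90 to −0.97 and −0.59 to 0.50 in CKX1, −0.82 to 1.11 and −1.37 to −0.29 between genotypes with solvent, −1.37 to 0.42 and −0.92 to 1.76 between genotypes at 15 min, and −1.56 to 0.49 and −0.028 to 2.65 for the interaction. With the replicate block as a fixed term, STZ in CKX1 was −1.44 (limma adjusted p = 0.975) and WRKY53 0.27; in Col-0 at 120 min the adjusted p was 0.0566 and 0.0817, and the block changed no call of either gene. Col-0 deviations correlated at 0.018, 0.112 and −0.017 between same numbers. With 2 arrays per group these values neither establish nor exclude a pairing of the Col-0 arrays. The count past the threshold in Col-0 at 120 min was 6, against 1027 with the fixed and 831 with the random block, and ran from 0 to 3672 over the settings. For 120 min against 15 min it was 3 and ran from 0 to 752, for CKX1 at 15 min 1 and 0 to 3, between genotypes with solvent 2 and 1 to 16, and between genotypes at 15 min 3 and 1 to 73; it stayed at 0 for the interaction under every setting run, and was 0 or 1 in Col-0 at 15 min, or up to 3 with an array left out. A filter at the 50th percentile removed WRKY53, and the fixed block gave no value for the 2 genotype comparisons.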
